A study of Mus musculus with 9 samples.

Results

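Fc gamma receptors are the cell surface proteins with which macrophages bind the constant part of immunoglobulin G (IgG), and the kinases beside them turn that binding into uptake and inflammatory output. The genes described here are Fcgr1, Fcgr2b, Fcgr3, Fcgr4, Fcer1g, Syk, Lyn and Fgr, chosen by gene name as the mouse IgG receptors, their common gamma chain and their proximal kinases. All 8 were found among the 54532 genes of the deposited FPKM table (fragments per unit of gene length, scaled to library size). All 8 passed the filter of at least 1 FPKM in at least 3 of 9 libraries, which left 11707 genes for testing. Fcgr3 passed it through the control libraries alone, so for Fcgr3 a difference from control was built into the filter. Fcgr4 passed it through the 3 LPS libraries, with 1 LPS + H-CDs library also above the limit, so for Fcgr4 a higher level with LPS was built in likewise. Fcgr2b passed it through the LPS and LPS + H-CDs libraries, with 1 control library above the limit, so its entry rested on the groups where it was high.

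The libraries came from RAW264.7, a mouse macrophage line labelled WT, with ascites as its source. The controls had no treatment. In the LPS group the medium held 1 µg/ml lipopolysaccharide, a component of the outer membrane of Gram-negative bacteria, for 6 h, and in the LPS + H-CDs group it held 400 µg/ml H-CDs as well. The labels do not say what H-CDs stands for; the title of the series speaks of a nanozyme from fruit with superoxide dismutase activity. No library had H-CDs without LPS. Each group held 3 libraries of 1 cell line, and nothing says that they came from separate cultures, so p-values reflect the spread of these libraries alone, and that spread may be technical. Between 14377161 and 16069968 reads per library were recovered. LPS + H-CDs replicate 1 stood apart, with 0.490% of its reads on mitochondrial messenger RNAs against 1.45 to 1.99% in the other libraries, and results that rest on it are given without it.

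As background, an activating receptor binds IgG on a particle and signals through the gamma chain encoded by Fcer1g, which carries an immunoreceptor tyrosine-based activation motif (ITAM). Src-family kinases such as Lyn and Fgr phosphorylate the ITAM, Syk binds it and starts the cascade to calcium, actin and phagocytosis. Fcgr2b encodes the only inhibitory IgG receptor, whose cytoplasmic inhibitory motif recruits the lipid phosphatase SHIP1 (Inpp5d), and the balance between activating and inhibitory receptors sets how readily a macrophage responds to antibody.

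The macrophage label was checked against marker genes. Of 10 macrophage markers 8 were in the tested set, and the summed level of the list lay between 2800 and 3118 FPKM in control, 3742 and 4113 FPKM in LPS and 2990 and 3125 FPKM in LPS + H-CDs libraries. The sum hides opposite courses: Cd14, a co-receptor for LPS, went from 401.2 to 2226 and 1926 FPKM, Csf1r, the receptor for macrophage colony-stimulating factor, from 455 to 195 and 227 FPKM, and the lysozyme gene Lyz2 from 1624 to 897 and 495 FPKM in control, LPS and LPS + H-CDs. With H-CDs against LPS, 1 of the 8 was higher and 4 were lower (Adgre1, Lyz2, Itgam and Mpeg1). None of 6 natural killer, 8 neutrophil, 6 dendritic cell or 8 fibroblast and epithelial markers reached the tested set, and their summed levels were at most 0.0763, 1.42, 0.896 and 0.173 FPKM. Of 8 B cell markers Ighm alone was tested (85.3 ± 3.67, 63.3 ± 2.88 and 49.2 ± 9.13 FPKM in control, LPS and LPS + H-CDs; SD, n = 3), while Ms4a1 and Ebf1 had no read. The summed B cell level was 81.5 to 87.8 FPKM in control, 60.3 to 66.0 with LPS and 39.1 to 56.2 with LPS + H-CDs. Among 8 T cell markers Lck alone was tested (summed level 0.934 to 5.39 FPKM), and Cd8a had no read. Of 8 mast cell and basophil markers Hdc, which LPS induces in macrophages too, accounted for most of a summed level of 24.4 to 26.0 FPKM with LPS and 10.2 to 11.1 with LPS + H-CDs. In control the sum was 0.0534 to 0.235 FPKM, with means of 0.0601 FPKM for Hdc and 0.0609 FPKM for Cpa3. Fcer1a, Ms4a2, Mcpt4, Mcpt8 and Tpsb2 had no read. In these bulk libraries fewer cells of a type and less RNA per cell cannot be told apart.

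The untreated cells carried mainly Fcgr1, which encodes the high-affinity receptor Fc gamma RI (ENSMUSG00000015947, GRCm38 chromosome 3, 96282909 to 96293969, minus strand). Its level was 36.6, 39.7 and 43.6 FPKM in the control libraries, 33.5, 35.7 and 35.3 FPKM with LPS, and 17.4, 21.4 and 21.6 FPKM with LPS + H-CDs. All LPS libraries lay below all control libraries, but the difference did not pass the test (log2 fold change -0.19 ± 0.09, SE, on the log2(FPKM + 1) scale used for all differences here; 95% interval -0.40 to 0.02; limma adjusted p = 0.112). The LPS + H-CDs libraries lay below both other groups, at 1.73-fold less than LPS in mean FPKM (log2 fold change -0.77 ± 0.09, adjusted p = 7.90e-04 in limma; -0.67 without LPS + H-CDs replicate 1) and 1.99-fold less than control (adjusted p = 2.42e-05 in limma). The fall with LPS alone became a call on the TPM scale (-0.54) and per total reads (-0.47), with the replicate number as a block (adjusted p = 0.0495) and in edgeR (-0.24), over a range of adjusted p from 6.40e-04 to 0.317.

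Fcgr2b, the inhibitory receptor Fc gamma RIIB (ENSMUSG00000026656, chromosome 1, 170958617 to 170976547, minus strand), followed another course. Control libraries had 0.837, 0.968 and 1.08 FPKM (81, 101 and 110 recovered reads), LPS libraries 8.40, 8.93 and 7.78 FPKM, and LPS + H-CDs libraries 8.22, 9.19 and 9.33 FPKM. It was 8.70-fold higher with LPS than in control, with no overlap between libraries (log2 fold change 2.26 ± 0.08, limma adjusted p = 1.90e-08). That was the side that its entry through the filter favoured. Over 14 alternatives in limma, edgeR or DESeq2, no filter among them, the adjusted p was at most 8.68e-07. LPS + H-CDs and LPS libraries overlapped, with a log2 difference of 0.08 ± 0.08 and a 95% interval of -0.10 to 0.26 (adjusted p = 0.545 in limma), which does not hold a fall of the size seen for Fcgr1.

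The other activating receptors, encoded by Fcgr4 and Fcgr3, were scarce as messenger RNA. Fcgr4, which encodes Fc gamma RIV (ENSMUSG00000059089, chromosome 1, 171018920 to 171029761, plus strand), had 0.286, 0.132 and 0.407 FPKM in control, 2.39, 2.52 and 1.22 FPKM with LPS and 0.804, 1.01 and 0.990 FPKM with LPS + H-CDs. The groups did not overlap, though LPS replicate 3 lay at about the level of the LPS + H-CDs libraries, and the values rest on 3 to 9, 23 to 43 and 15 to 20 reads per library. Fcgr4 was higher with LPS (7.42-fold in mean FPKM, limma adjusted p = 3.37e-04), on the side that the filter fixed; with no filter the adjusted p was 0.00148. With H-CDs it was 2.18-fold lower than with LPS alone (log2 fold change -0.62 ± 0.18, limma adjusted p = 0.0477, and 0.108 with no filter), again on that side, and a call that ended under 11 of 14 alternatives, with adjusted p from 0.00832 to 0.166. These 11 included leaving out LPS replicate 1 (-0.53) or 2 (-0.50) and each LPS + H-CDs replicate (-0.58, -0.65 and -0.65).

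Fcgr3, which encodes Fc gamma RIII (ENSMUSG00000059498, chromosome 1, 171051174 to 171064935, minus strand), went the opposite way with LPS. It had 1.52, 2.24 and 1.61 FPKM in control (44, 70 and 49 reads), 0.259, 0.255 and 0.422 FPKM with LPS (6, 6 and 11 reads) and 0.466, 0.219 and 0.318 FPKM with LPS + H-CDs (12, 6 and 8 reads). The LPS libraries lay below control by 5.73-fold in mean FPKM (log2 fold change -1.08 ± 0.14, limma adjusted p = 1.52e-04), on the side that the filter fixed; with no filter the adjusted p was 3.29e-04. LPS and LPS + H-CDs libraries overlapped (log2 fold change 0.02, 95% interval -0.30 to 0.34, limma adjusted p = 0.935), and a change between them was not detectable at this depth.

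Fcgr2b, Fcgr4 and Fcgr3 lie beside each other on chromosome 1, and Fcgr2b and Fcgr3 share sequence, which bears on their counts. Between their longest coding sequences in GENCODE release M21 (1023 bases in Fcgr2b and 804 in Fcgr3) the longest identical run was 129 bases, at coding bases 278 to 406 of Fcgr2b and 263 to 391 of Fcgr3. The stretch is shown because a fragment that falls within it names neither gene.
Fcgr2b and Fcgr3, shared coding run: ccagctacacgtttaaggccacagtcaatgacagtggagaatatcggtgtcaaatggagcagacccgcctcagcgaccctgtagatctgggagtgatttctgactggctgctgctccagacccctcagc
Of all 100-base windows of the Fcgr3 coding sequence 6.24% occurred unchanged in Fcgr2b, and of 50-base windows 21.99%. Neither gene shared a window of 50 bases with Fcgr1 or Fcgr4. How the authors treated such fragments is not given in the sources used here, so the low level of Fcgr3 and its split from Fcgr2b are less certain than the other values.

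**Figure D1:**
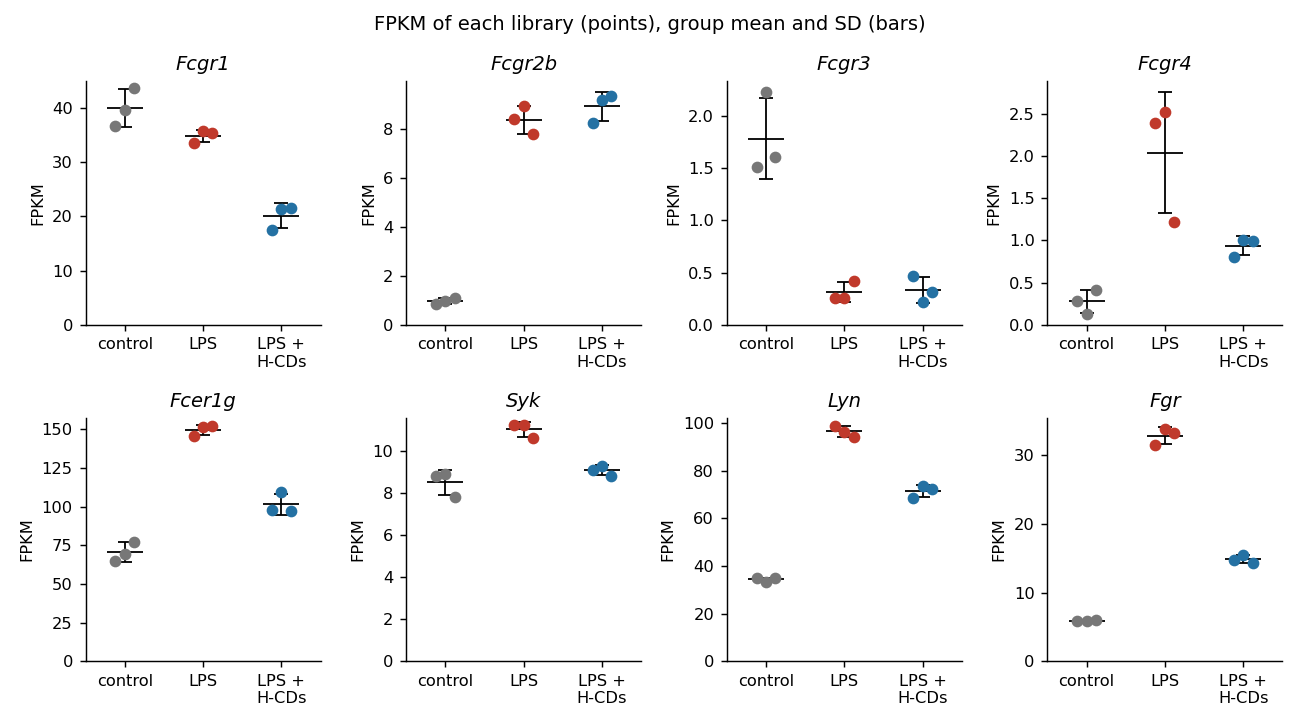
FPKM of the 8 genes (vertical axes, each from 0, differing between panels) in the 3 control, 3 LPS and 3 LPS + H-CDs libraries; points are libraries, horizontal bars the group mean and whiskers the SD. Fcer1g, Syk, Lyn, Fgr and Fcgr4 are highest with LPS and lower with H-CDs, Fcgr2b is near 8 to 9 FPKM in both LPS groups, and Fcgr1 is lowest with H-CDs.

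The make-up of the receptor messenger RNA differed between the groups. On the FPKM scale, which is per length, Fcgr2b made up 2.13, 2.25 and 2.31% of the summed level of the 4 IgG receptors in control libraries, 18.9, 18.8 and 17.4% with LPS and 30.6, 28.9 and 29.0% with LPS + H-CDs. The groups did not overlap, and as a ratio within a library the share does not depend on the scale between libraries. Fcgr1 stood at 41.7 ± 1.81 times the level of Fcgr2b in control, 4.17 ± 0.315 times with LPS and 2.25 ± 0.117 times with LPS + H-CDs (SD, n = 3). The first step came with the rise of Fcgr2b, and the second with the lower Fcgr1. The summed level of the 4 receptors was 43.0 ± 3.73 FPKM in control, 45.5 ± 1.60 with LPS and 30.3 ± 2.96 with LPS + H-CDs. These shares describe genes chosen for the receptor family and carry no test.

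**Figure D2:**
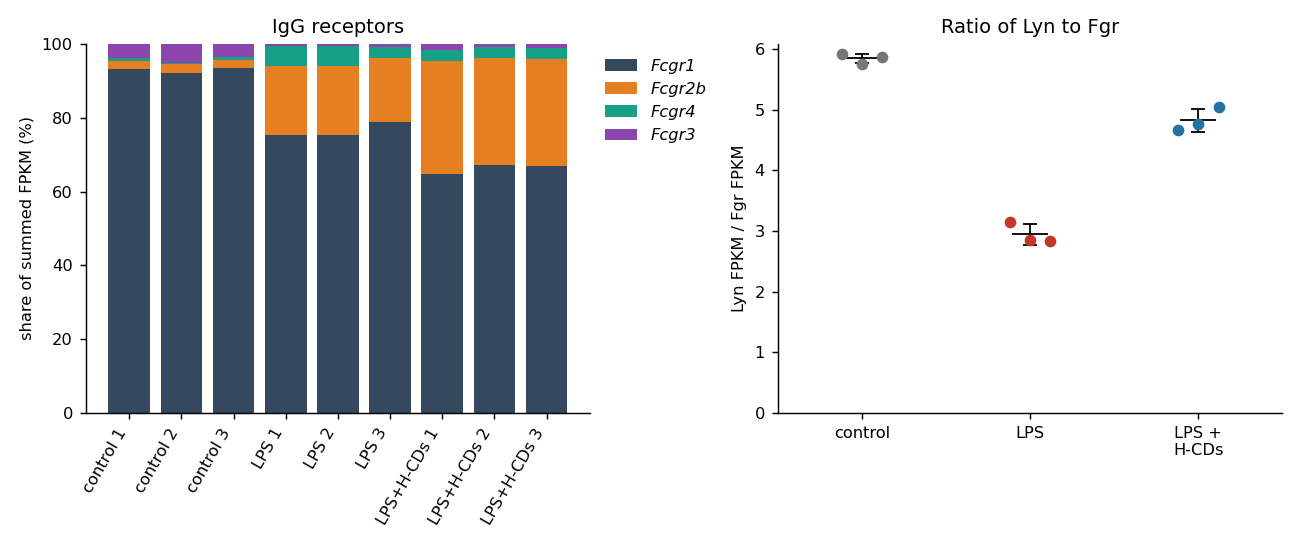
Left, share of each gene in the summed FPKM of the 4 IgG receptors (vertical axis, in percent), with 1 bar per library; right, ratio of Lyn to Fgr in FPKM (vertical axis, from 0), with points for libraries, horizontal bars for the group mean and whiskers for the SD. Fcgr2b (orange, left) widens from about 2% to 18% and 29% from control to LPS and LPS + H-CDs, and the ratio on the right is 5.84 in control, 2.94 with LPS and 4.82 with LPS + H-CDs.

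Promoter windows of 300 bases from RefSeq (build GRCm38.p6) were matched for 7 of the 8 genes, 9 windows in all. They were searched on both strands for TTCNNNGAA, the core of the GAS element, for the core of the interferon-stimulated response element (ISRE), and for GAGGAA, a core bound by PU.1. The first was present in 8.30% of the 32851 windows of the table, the second in 3.44% and the third in 28.3%. The windows of Fcgr1, Fcgr4 and Fcgr2b are shown as those of IgG receptor genes that differ in the motifs they hold, and were chosen with the expression values known. Capitals mark the motifs.
Fcgr1, chr3:96293920-96294219, minus strand: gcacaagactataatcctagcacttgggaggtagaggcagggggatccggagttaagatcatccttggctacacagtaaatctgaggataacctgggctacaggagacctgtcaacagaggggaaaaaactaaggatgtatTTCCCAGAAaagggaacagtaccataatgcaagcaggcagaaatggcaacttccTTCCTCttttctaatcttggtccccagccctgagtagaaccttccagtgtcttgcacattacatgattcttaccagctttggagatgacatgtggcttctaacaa
Fcgr4, chr1:171018676-171018975, plus strand: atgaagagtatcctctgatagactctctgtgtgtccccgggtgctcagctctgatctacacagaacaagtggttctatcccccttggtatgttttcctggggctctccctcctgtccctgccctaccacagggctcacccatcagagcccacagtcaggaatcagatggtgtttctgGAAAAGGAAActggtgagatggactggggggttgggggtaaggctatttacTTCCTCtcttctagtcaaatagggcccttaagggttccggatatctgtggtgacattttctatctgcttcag
Fcgr2b, chr1:170976022-170976321, minus strand: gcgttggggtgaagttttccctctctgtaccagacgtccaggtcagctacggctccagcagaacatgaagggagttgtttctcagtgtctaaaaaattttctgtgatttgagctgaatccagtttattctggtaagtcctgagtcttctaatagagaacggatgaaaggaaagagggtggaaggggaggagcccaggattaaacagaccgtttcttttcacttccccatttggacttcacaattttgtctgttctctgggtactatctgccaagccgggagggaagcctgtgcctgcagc
With the first transcribed base at 0, the Fcgr1 window held a GAS core at -109 and a PU.1 core on the other strand at -55. The Fcgr4 window held an ISRE core at -73 and a PU.1 core on the other strand at -22, and no GAS core. Of the windows not shown, those of Fcgr3 and Fgr and 1 of the 2 of Syk held a PU.1 core, and that of Fcer1g held none of the motifs. No GAS or ISRE core was found in the windows of Fcer1g, Syk and Fgr, which were lower with H-CDs than with LPS. The same held for the windows of Fcgr2b and Fcgr3, which did not pass in that comparison. Lyn, also lower, had no window. A match is a description of the letters in a window, and no relation to the expression values was tested.

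The gamma chain gene Fcer1g (ENSMUSG00000058715, chromosome 1, 171229572 to 171234365, minus strand) had the highest level of the 8 genes in every group. Control libraries had 65.1, 69.4 and 77.4 FPKM, LPS libraries 146, 151 and 152 FPKM and LPS + H-CDs libraries 98.0, 109 and 97.0 FPKM, with no overlap between any groups. It was 2.12-fold higher with LPS than in control (log2 fold change 1.08 ± 0.08, limma adjusted p = 2.77e-06) and 1.48-fold lower with H-CDs than with LPS alone (-0.56 ± 0.08, adjusted p = 0.00162). Per FPKM of the summed activating receptors Fcgr1, Fcgr3 and Fcgr4 there were 1.68 ± 0.0258 FPKM of Fcer1g in control, 4.03 ± 0.0911 with LPS and 4.78 ± 0.507 with LPS + H-CDs.

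Among the Src-family kinases, Fgr (ENSMUSG00000028874, chromosome 4, 132974095 to 133001910, plus strand), a kinase largely of myeloid cells, had the smallest adjusted p of the 8 genes both for LPS and for H-CDs. Its level was 5.88, 5.80 and 5.95 FPKM in control, 31.5, 33.8 and 33.2 FPKM with LPS and 14.7, 15.4 and 14.3 FPKM with LPS + H-CDs. The 3 groups lay far apart relative to their spread. LPS raised it 5.58-fold (log2 fold change 2.30 ± 0.05, limma adjusted p = 1.24e-09), and with H-CDs it was 2.21-fold lower than with LPS (-1.09 ± 0.05, adjusted p = 4.69e-06) but still 2.52-fold above control (adjusted p = 1.35e-07).

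Lyn (ENSMUSG00000042228, chromosome 4, 3678115 to 3813122, plus strand), whose kinase can act on activating and inhibitory motifs alike, had 34.8, 33.4 and 34.8 FPKM in control, 98.9, 96.2 and 94.2 FPKM with LPS and 68.6, 73.6 and 72.2 FPKM with LPS + H-CDs. It rose 2.81-fold with LPS (log2 fold change 1.46 ± 0.05, limma adjusted p = 2.58e-08) and was 1.35-fold lower with H-CDs than with LPS alone (-0.43 ± 0.05, adjusted p = 9.87e-04). The ratio of Lyn to Fgr in FPKM was 5.84 ± 0.0794 in control, 2.94 ± 0.173 with LPS and 4.82 ± 0.192 with LPS + H-CDs, so the libraries with LPS alone had the lowest ratio of the 3 groups.

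Syk (ENSMUSG00000021457, chromosome 13, 52583173 to 52648792, plus strand), the kinase that docks on the phosphorylated ITAM, had 8.80, 8.92 and 7.81 FPKM in control, 11.3, 11.3 and 10.6 FPKM with LPS and 9.11, 9.30 and 8.84 FPKM with LPS + H-CDs. The LPS libraries lay above all others, while control and LPS + H-CDs libraries overlapped. The rise with LPS was 1.30-fold (log2 fold change 0.34 ± 0.06, limma adjusted p = 0.00140) and lost its call on the TPM scale (0.03) and per total reads (0.08). With H-CDs it was 1.22-fold lower than with LPS (-0.26 ± 0.06, adjusted p = 0.0260 in limma). That call ended under 7 of 14 alternatives, with adjusted p from 0.00872 to 0.0975. They were TPM (-0.23), total reads (-0.18), and leaving out LPS replicate 1 (-0.24) or 2 (-0.24) or LPS + H-CDs replicate 1 (-0.26), 2 (-0.27) or 3 (-0.24).

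By level in FPKM the order in control was Fcer1g, Fcgr1, Lyn, Syk, Fgr, Fcgr3, Fcgr2b and Fcgr4, with no overlap between neighbours. With LPS it was Fcer1g, Lyn, Fcgr1, Fgr, Syk, Fcgr2b, Fcgr4 and Fcgr3, and with LPS + H-CDs the order was the same. The neighbours Fcgr1 and Fgr overlapped with LPS, and Syk and Fcgr2b with LPS + H-CDs (9.08 ± 0.235 and 8.91 ± 0.603 FPKM).

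For LPS against control, then, 6 of the 8 genes were higher, 1 lower and 1 did not pass. Of all tested genes 55.6% passed, 28.8% higher and 26.8% lower. Fcgr4, among the higher, and Fcgr3, the lower one, had these directions set by the filter. Fcgr2b, also among the higher, entered the filter through the groups where it was high. The count is therefore a description. The median log2 fold change of the 8 was 1.15 and of all tested genes 0.03. The LPS and control libraries were fully separate in all 8, as in 63.9% of tested genes. The scale between libraries matters here, since rescaling to TPM moved the median of all tested genes to -0.30 and total reads to -0.22. Over all genes the calls stood at 3372 higher and 3136 lower, at 1676 and 5657 under TPM, and at 1904 and 5191 under total reads. Among the 8 genes, 5 were higher and 2 lower under either of those scales.

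For LPS + H-CDs against LPS none of the 8 was higher, 6 were lower and 2 did not pass. Of all tested genes 15.6% passed, 6.54% higher and 9.05% lower. The fall of Fcgr4 was on the side set by the filter. The median log2 fold change was -0.49, against -0.01 for all tested genes, and the libraries did not overlap in 6 of the 8, as in 36.8% of tested genes. The 8 tested macrophage markers had a median of -0.53 in the same comparison, and their part in the result was not tested. Over all genes the split of 766 higher and 1060 lower became 875 and 690 under TPM and 1195 and 690 under total reads, while the 8 genes had 0 higher and 4 lower under both. Without LPS + H-CDs replicate 1, 4 were lower (Fcgr1, Fcer1g, Lyn and Fgr). In the authors' deposited table, which called 10.1% of its 21576 genes, 5 of the 8 were lower, with a log2 fold change of -1.13 for Fgr, -0.78 for Fcgr1, -0.55 for Fcer1g, -0.42 for Lyn and -0.27 for Syk. Fcgr4 missed the threshold in the authors' deposited table (-1.11, adjusted p = 0.0655), as did Fcgr2b (0.11) and Fcgr3 (0.11).

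Against control, the combined exposure left 5 genes higher, 2 lower and Syk not past the threshold (log2 fold change 0.09 ± 0.06, 95% interval -0.06 to 0.23, limma adjusted p = 0.290). Of all tested genes 52.0% passed, 26.7% higher and 25.4% lower. Over all genes the split of 3120 higher and 2970 lower became 1651 and 5338 under TPM and 2033 and 4528 under total reads, while the 8 genes had 5 higher and 2 lower under both. The libraries did not overlap in 7 of the 8, as in 57.7% of tested genes. Fcgr2b stood 9.27-fold, Fcgr4 3.40-fold, Lyn 2.08-fold and Fcer1g 1.44-fold above control in mean FPKM. Fcgr1 and Fcgr3 stood 1.99-fold and 5.34-fold below it. The lower level of Fcgr3 was on the side set by the filter, and Fcgr2b entered the filter through the groups where it was high. The LPS + H-CDs and control libraries are the same as in the comparisons above, so the values are a description beside them. The call for Fcgr4 (log2 fold change 0.61, limma adjusted p = 0.0198, over alternatives 0.00210 to 0.0674) ended without control replicate 2 (0.52) and without LPS + H-CDs replicate 2 (0.58) or 3 (0.58).

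**Figure D3:**
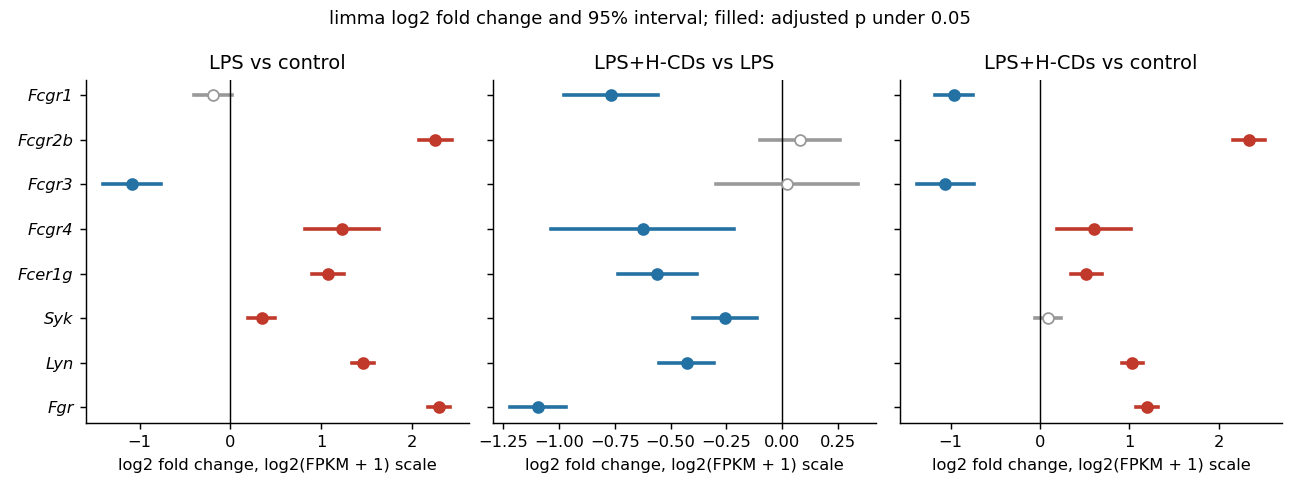
Log2 fold change of the 8 genes (horizontal axes, log2(FPKM + 1) scale, differing between panels) with its 95% interval from limma, for LPS against control, LPS + H-CDs against LPS and LPS + H-CDs against control. Filled points passed an adjusted p of 0.05, red for higher and blue for lower; with H-CDs against LPS 6 points lie below 0, and those of Fcgr2b and Fcgr3 are open.

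The kinases and adaptors next to these genes were read from lists of pathway members. The shares over all tested genes belong beside each list count below. They were 28.8% higher and 26.8% lower for LPS against control, and 6.54% higher and 9.05% lower for LPS + H-CDs against LPS. The list counts are descriptions, and no list was tested as a set. Of 9 tested genes among other Src-family kinases and their regulators, 7 were higher with LPS and 1 lower. The receptor phosphatase gene Ptprj, whose product can activate Src-family kinases, went from 14.3 to 68.9 and 42.5 FPKM, and the transmembrane phosphatase gene Ptprc (CD45) from 9.70 to 19.4 and 15.1 FPKM. Csk, which encodes the kinase that holds the family inactive, fell with LPS from 80.8 ± 2.28 to 54.8 ± 2.03 FPKM. In all, 5 of the 9 were lower with H-CDs, among them Ptprj, Ptprc, Src and Csk, and Ptpn22 was higher; of these the calls of Src, Csk and Ptpn22 ended under 7, 11 and 8 of 14 alternatives, with adjusted p up to 0.133, 0.227 and 0.127. Src passed the filter through the 3 LPS libraries alone (1.23, 1.01 and 1.34 FPKM). Its rise with LPS, among the 7 above, and its fall with H-CDs were thus both built in.

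Adaptors and enzymes downstream of the kinases went both ways with LPS, with 13 higher, 11 lower and 10 not past the threshold of 34 tested. Under TPM 8 were higher and 17 lower. Prkce passed the filter through the LPS and LPS + H-CDs libraries alone, so for Prkce a higher level with LPS was built in. Lcp2, the adaptor SLP-76, rose from 33.6 ± 0.709 to 171 ± 11.1 FPKM, Pik3ap1, an adaptor of phosphoinositide 3-kinase, from 28.6 ± 4.74 to 127 ± 3.81 FPKM, and Pik3r5, a regulatory subunit of that kinase, from 22.8 ± 1.59 to 58.2 ± 2.56 FPKM, while the subunit gene Pik3r2 fell from 24.6 to 7.59 FPKM. With H-CDs 1 was higher and 10 were lower than with LPS. Pik3r5 was at 34.3 ± 1.40 FPKM (log2 fold change -0.74 ± 0.07, limma adjusted p = 1.54e-04) and Prkcd, a protein kinase C, at 39.7 ± 0.987 against 54.0 ± 1.75 FPKM (adjusted p = 0.00152 in limma). The exception was Pla2g4a, the cytosolic phospholipase that frees arachidonic acid, which rose from 35.5 ± 2.47 to 55.7 ± 1.85 FPKM (limma adjusted p = 3.34e-04). Plcg2 and Btk, which act after Syk, stood at 39.2 and 34.97 FPKM and at 20.9 and 18.8 FPKM in LPS and LPS + H-CDs, and neither passed (adjusted p = 0.127 and 0.196 in limma).

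Of 25 tested actin regulators of the phagocytic cup, 11 rose and 7 fell with LPS while 7 did not pass. Under TPM or total reads 4 were higher and 11 lower. Marcks, among the 11, was at 0 FPKM in control and passed the filter through LPS and LPS + H-CDs libraries alone, so its rise was built in. Myo10, a myosin of filopodia and phagocytic cups, rose from 8.56 ± 0.954 to 37.7 ± 1.54 FPKM and was at 25.5 ± 2.16 FPKM with H-CDs (limma adjusted p = 0.00357 against LPS). With H-CDs 5 of the 25 were lower (Myo10, Wasf2, Myo1g, Dock2 and Rac2) and none higher; the call of Dock2 ended under 8 of 14 alternatives, with adjusted p up to 0.106. Wasf2, which encodes a subunit of the WAVE complex, went from 43.0 to 31.4 FPKM.

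Of 16 tested negative regulators of the pathway, 6 rose and 7 fell with LPS while 3 did not pass. Under TPM 4 were higher and 9 lower. Pilra, among the 6, passed the filter through the LPS libraries alone, so its rise was built in. Lair1 passed it through the control libraries alone (1.40, 1.12 and 1.32 FPKM), so for Lair1 a lower level with LPS was built in. Inpp5d, the phosphatase SHIP1 that Fcgr2b recruits, fell from 31.6 ± 1.5 to 22.2 ± 1.61 FPKM with LPS (log2 fold change -0.50 ± 0.07, limma adjusted p = 2.44e-04), opposite to the rise of Fcgr2b itself. With H-CDs it was at 23.9 ± 1.10 FPKM (adjusted p = 0.350 against LPS in limma). The inhibitory receptor gene Lilrb4a rose from 6.71 ± 0.181 to 143 ± 21.5 FPKM and was at 133 ± 14.4 FPKM with H-CDs (limma adjusted p = 0.621 against LPS). Sirpa, the inhibitory receptor for CD47, fell from 35.1 ± 0.571 to 10.9 ± 0.437 FPKM with LPS. With H-CDs 6 of the 16 were lower and none higher, among them Ubash3b, Inppl1 (46.0 to 34.8 FPKM) and Pilra, whose fall was built in by the filter as well. Ptpn6, the phosphatase SHP-1, was lower too (132 ± 3.68 to 107 ± 9.91 FPKM, limma adjusted p = 0.0361). Its call ended under 9 of 14 alternatives in limma, edgeR or DESeq2, with adjusted p up to 0.107. The call of Dok2, also lower (limma adjusted p = 0.0468), ended under 11 of those 14, with adjusted p up to 0.154.

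Receptors that borrow Fcer1g or the related ITAM adaptor Tyrobp, with the other ITAM adaptors, went both ways with LPS. Of 10 tested, 4 were higher and 4 lower with LPS, and 2 and 5 under TPM. With H-CDs 4 were higher than with LPS and none lower. Of the 4, Clec4n passed the filter through the LPS + H-CDs libraries alone (1.47, 1.12 and 1.17 FPKM), so its rise was built in, and the call of Cd300lb ended under 7 of 14 alternatives, with adjusted p up to 0.113. Clec4d, a C-type lectin that signals through the gamma chain, went from 31.2 ± 2.04 in control to 63.6 ± 7.23 with LPS and 107 ± 7.51 FPKM with LPS + H-CDs (log2 fold change 0.75 ± 0.09 for the last step, limma adjusted p = 8.37e-04). Its neighbour in function Clec4e (Mincle) rose from 8.88 ± 1.18 to 87.5 ± 3.20 FPKM with LPS and was at 102 ± 18.6 FPKM with H-CDs (limma adjusted p = 0.365; 0.0400, higher, without LPS + H-CDs replicate 1). Trem2, which pairs with Tyrobp, fell from 27.0 ± 2.22 to 4.38 ± 0.754 FPKM with LPS and was at 6.98 ± 0.393 FPKM with H-CDs (adjusted p = 0.00632 in limma). Tyrobp itself was at 253 ± 26.0, 193 ± 27.0 and 162 ± 12.4 FPKM, lower with LPS than in control (limma adjusted p = 0.0171), and its LPS and LPS + H-CDs libraries overlapped (adjusted p = 0.203 in limma).

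Of 10 transcription factors known to act on Fc gamma receptor genes, 7 were higher and 1 lower with LPS, and 2 were higher (Cebpa and Cebpb) and 3 lower with H-CDs than with LPS. Without LPS + H-CDs replicate 1 none was higher and 3 were lower. The call of Cebpa ended under 7 of 14 alternatives, with adjusted p up to 0.126 in limma. Irf8, an interferon regulatory factor of the macrophage lineage, rose from 13.4 ± 0.145 to 58.2 ± 0.917 FPKM with LPS and was at 36.9 ± 1.14 FPKM with H-CDs (limma adjusted p = 6.53e-05 against LPS). Stat2 went from 4.81 to 21.8 and 15.3 FPKM and Stat3 from 10.2 to 24.9 and 16.9 FPKM. Spi1, which encodes PU.1, was at 119 ± 8.50, 137 ± 10.7 and 119 ± 1.65 FPKM, with neither step past the threshold (adjusted p = 0.0518 and 0.117 in limma).

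**Figure D4:**
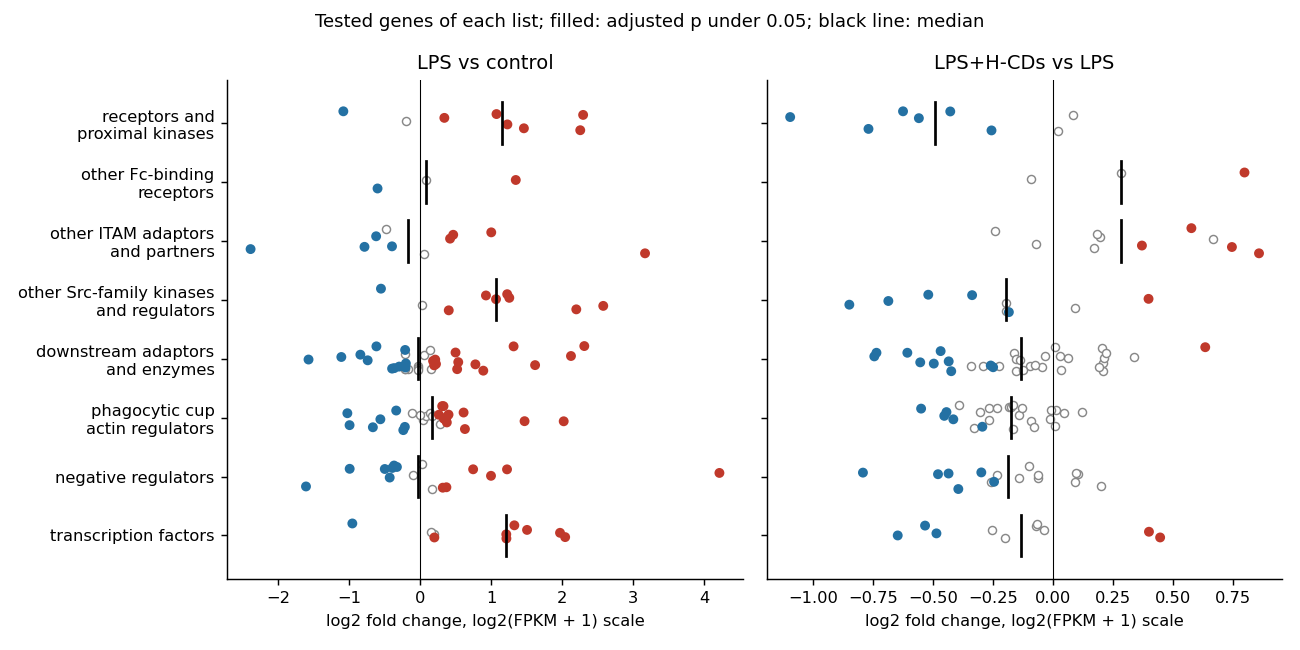
Log2 fold change (horizontal axes, log2(FPKM + 1) scale) of every tested gene of 8 lists for LPS against control (left) and LPS + H-CDs against LPS (right); filled points passed an adjusted p of 0.05 in limma, open points did not, and black lines are medians. On the right the receptors and proximal kinases have the lowest median, -0.49, and the ITAM adaptors and their partners lie mostly above 0, with a median of 0.28.

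The smaller list counts for H-CDs against LPS rest in part on the scale between libraries and on single libraries. Under TPM, total reads and DESeq2 the lower calls were 3, 3 and 8 for negative regulators and 4, 3 and 9 for actin regulators, with 0 higher. For other Src-family genes and regulators they were 3, 4 and 5, with 1 higher. Other Src-family genes and regulators went from 6 called to 3 without LPS replicate 1 or 3 or LPS + H-CDs replicate 3, and under the replicate block. Actin regulators went from 5 to 3 without LPS replicate 1 or 2. Negative regulators went from 6 to 3 without LPS replicate 1 or 2 or LPS + H-CDs replicate 2. Transcription factors went from 5 to 3 without LPS replicate 1 or 2 or LPS + H-CDs replicate 1 or 2, and under the replicate block. Without LPS + H-CDs replicate 1 the calls were 4 for Src-family genes and regulators, 11 for downstream adaptors and enzymes, 6 for actin regulators, 5 for negative regulators and 5 for ITAM adaptors and partners.

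The genes whose course over the 9 libraries lay nearest to each of the 8 were sought among 7273 tested genes with a mean of at least 5 FPKM, by the root mean square difference of log2(FPKM + 1) after centring each gene on its own mean. Nearest to Fcgr1 were Stom (0.11) and Nrros (0.13), to Fcgr2b Osgin2 (0.099) and Plk3 (0.10), and to Fcgr3 the replication genes Mcm5 (0.083) and Chaf1a (0.089). Fcgr4 lay nearest to Bmp2k (0.16) and Mpeg1 (0.17), Fcer1g to the actin regulator gene Vasp (0.077) and the beta-actin gene Actb (0.081), and Syk to Prpf38b (0.046) and Unk (0.048). Lyn lay nearest to Pip5k1b (0.045) and Pea15a (0.068), and Fgr to Xylt2 (0.085) and Phf11b (0.13). Osgin2, for example, had means of 4.65, 25.2 and 26.9 FPKM in control, LPS and LPS + H-CDs, the same order as Fcgr2b, and Stom had 107, 89.6 and 58.4 FPKM, the same order as Fcgr1. For low genes the added 1 flattens the course, which limits the likeness for Fcgr2b, Fcgr3 and Fcgr4. From control to LPS Mcm5 went from 107 to 50.9 FPKM and Bmp2k from 7.73 to 17.8 FPKM. Those are smaller fold changes than the 5.73-fold of Fcgr3 and the 7.42-fold of Fcgr4. The rise of Osgin2 with LPS was likewise smaller than the 8.70-fold of Fcgr2b.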

How the data were processed

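Per the labels' protocols, messenger RNA was taken from TRIzol extracts with poly-T beads, and random hexamers primed the cDNA; whether strands were kept is not stated. The authors deposited FPKM per gene for 9 libraries, and for LPS + H-CDs against LPS a signal per library (reads divided by 1 factor per library, and group means), a log2 fold change and p-values with adjusted p-values. The build was GRCm38 (mm10) per the submitters' processing notes; the aligner, the counter and the authors' test: not given in the sources used here. The table columns abbreviate H-CDs to CD.

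FPKM times length was a whole multiple of 1 step in every library for 100% of values above 0 (tolerance 0.01), which gave reads; the comparison table gave the same reads. The size behind FPKM was 1.13 to 1.15 times the own total of control libraries, 0.928 to 0.935 times that of LPS libraries and 0.983 to 0.993 times that of LPS + H-CDs libraries.

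Genes with at least 1 FPKM in at least 3 libraries were fitted with limma 3.58.1 (R 4.3.3), with an intensity trend, on log2(FPKM + 1) over the 9 libraries, 2-sided, with Benjamini-Hochberg adjustment over the 11707 genes at 0.05. For a single gene with 3 libraries a group, the smallest p of an exact permutation test is 0.1. Alternatives were a pseudocount of 0.1, no filter, TPM, total reads, the compared groups alone, a replicate block, each library left out, and edgeR 4.0.16 and DESeq2 1.42.0 on the recovered reads. Fold changes are ratios of mean FPKM; the log2(FPKM + 1) scale understates changes of low genes. The 8 genes, the lists and the tests were chosen with earlier results of these data known. Named were the 8 genes, up to 4 per list and comparison by smallest adjusted p, and the 2 nearest genes of each, though some genes that this rule names are not reported here; Inpp5d, Tyrobp, Spi1, Plcg2, Btk and the markers were named for their roles, and Rac2 and Cebpb to complete a count, after values were seen. Antisense Gm38204 (Fcgr2b, 11 reads over 9 libraries) and Gm26857 (Lyn, 326 reads) overlap these genes on the other strand.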

Additional observations from a re-analysis of the deposited data

How the results depend on the processing

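The counts of the 8 genes past the threshold stayed within 1.5 times the reported ones under every alternative run: 7 to 8 for LPS against control, 4 to 6 for LPS + H-CDs against LPS, and 6 to 7 for LPS + H-CDs against control. Calls over all genes for LPS + H-CDs against LPS went from 1826 to between 1022 and 1653 with 1 library left out; they were 2123 in edgeR and 2322 in DESeq2. The sign of Fcgr3 in that comparison, which did not pass, ran from -0.047 to 0.086 with 1 library left out, and was -0.0053 without LPS replicate 1, -0.0078 without LPS replicate 2 and -0.047 without LPS + H-CDs replicate 1. Syk against control, which did not pass either, turned from 0.09 to -0.21 under TPM and -0.10 under total reads; those scales also moved the median of all genes. Libraries of different groups share replicate numbers only: the correlation across genes of their deviations from the group means was -0.121 to 0.198, and a library correlated best with its own number in 5 of 18 checks. With the replicate block, 8, 5 and 7 of the 8 genes passed in the order above, and 1485 genes passed for LPS + H-CDs against LPS. Fcgr3 and Fcgr4 rest on 3 to 70 reads per library, which limits what can be said of both.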

Other observations

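Other listed genes of antibody receptors and Fc receptor-like proteins were mostly silent in these cells: 3 of 12 were in the tested set. Fcrl1, an Fc receptor-like gene known from B cells, was at 8.20 ± 1.02 FPKM in control, 8.72 ± 0.972 with LPS and 15.9 ± 1.66 with LPS + H-CDs (SD, n = 3), higher with H-CDs than with LPS alone in all libraries (log2 fold change 0.80 ± 0.11, limma adjusted p = 0.00153). The B cell markers Ms4a1 and Ebf1 had no read, and the summed level of the B cell list was 60.3 to 66.0 FPKM with LPS and 39.1 to 56.2 with LPS + H-CDs, nearly all of it Ighm. Trim21, the cytosolic antibody receptor that marks antibody-bound viruses for degradation, rose from 1.33 ± 0.105 to 4.93 ± 0.203 FPKM with LPS (log2 fold change 1.35 ± 0.07, limma adjusted p = 3.33e-07) and was at 4.57 ± 0.274 FPKM with H-CDs (adjusted p = 0.444 against LPS in limma). Fcgrt, the neonatal Fc receptor that recycles IgG, fell from 3.07 ± 0.490 to 1.70 ± 0.487 FPKM with LPS (log2 fold change -0.60 ± 0.15, limma adjusted p = 0.00816) and was at 2.27 ± 0.379 FPKM with H-CDs (adjusted p = 0.244 against LPS in limma).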
